A study of Mus musculus with 6 samples.

Results

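Skeletal muscle takes up long-chain fatty acids from the blood and burns them in its mitochondria, and the transcripts described here encode the proteins of that route. The 10 genes named for it were Cd36 and Fabp3 for uptake, Cpt1b and Cpt2 for the carnitine shuttle, Acadm, Acadl and Acadvl for the first oxidation step, and Hadha, Hadhb and Acaa2 for the steps that follow. Probe sets were taken for a gene where the platform annotation pairs them with that gene alone. This gave 18 probe sets for 9 of the 10 genes, out of 45101 probe sets and 18194 genes in all. Cpt1b had 0 such probe sets, because its 1 probe set is annotated to other genes as well, and it is not described further. Intensities in this text are the deposited probe set values on a linear scale. Differences are log2 values, knockout minus control, so that 1 unit is a doubling.

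The knockout group was quadriceps muscle of mice with floxed alleles of Pofut1 and a cre transgene under skeletal alpha-actin (3 samples, 1 array each). The control group was quadriceps muscle of mice with that cre and wild-type Pofut1 (3 samples, 1 array each). All mice were 2 months old, of the strain given as C57/Bl6. The enzyme made from Pofut1 attaches fucose to EGF-like repeats, for instance those of Notch receptors. The promoter that drives the cre is active in muscle fibres, so other cells of the tissue keep their Pofut1, and whole-tissue RNA holds both. The comparison asks which transcripts of muscle differ when its fibres lack Pofut1.

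Fatty acid oxidation works in a fixed order. CD36 helps fatty acids across the plasma membrane, and FABP3 binds them in the cytosol of muscle and heart. After activation to acyl-CoA, the CPT enzymes carry the chains into the mitochondrial matrix as carnitine esters. There each turn of beta-oxidation shortens the chain through an acyl-CoA dehydrogenase, a hydratase, a hydroxyacyl-CoA dehydrogenase and a thiolase. In muscle much of this gene set is under the nuclear receptors PPAR and ERR.

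Promoter windows of 8 of the 10 genes were taken from RefSeq tables of build GRCm38.p6. Each ran from 250 bases before the annotated start to 50 bases after it. Windows of Cpt1b and Acaa2 were not part of the search, so the counts below cover these 8 alone. The Hadhb window is shown because Hadha and Hadhb encode the alpha and beta subunits of one enzyme and lie head to head, with 272 bases between their starts. The capitals mark the 228 bases that the windows of both genes share. The other windows are shown because they are the 3 of the 8 that hold the letters AGGTCA on either strand. These letters are the half-site of PPAR and other nuclear receptors. Capitals mark the half-site there, as AGGTCA or its reverse complement TGACCT.
Hadhb, chr5:30155003-30155302, + strand: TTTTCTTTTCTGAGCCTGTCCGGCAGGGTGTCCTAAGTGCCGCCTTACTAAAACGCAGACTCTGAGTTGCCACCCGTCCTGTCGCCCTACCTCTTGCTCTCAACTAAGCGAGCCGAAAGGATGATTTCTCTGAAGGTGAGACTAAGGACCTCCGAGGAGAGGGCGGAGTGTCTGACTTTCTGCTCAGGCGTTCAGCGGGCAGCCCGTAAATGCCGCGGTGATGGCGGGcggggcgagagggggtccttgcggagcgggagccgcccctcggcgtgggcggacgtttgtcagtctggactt
Cd36, chr5:17835847-17836146, - strand: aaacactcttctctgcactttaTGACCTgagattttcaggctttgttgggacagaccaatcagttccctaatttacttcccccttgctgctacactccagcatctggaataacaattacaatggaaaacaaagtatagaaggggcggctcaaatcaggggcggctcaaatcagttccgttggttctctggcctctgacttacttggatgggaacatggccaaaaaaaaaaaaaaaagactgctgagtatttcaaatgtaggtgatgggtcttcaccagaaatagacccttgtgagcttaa
Acadm, chr3:153944594-153944893, - strand: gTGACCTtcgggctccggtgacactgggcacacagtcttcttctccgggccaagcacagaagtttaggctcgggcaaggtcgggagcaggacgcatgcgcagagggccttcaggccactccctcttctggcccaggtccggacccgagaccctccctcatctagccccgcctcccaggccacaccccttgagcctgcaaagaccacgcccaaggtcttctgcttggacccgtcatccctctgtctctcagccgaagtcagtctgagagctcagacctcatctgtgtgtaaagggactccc
Acadvl, chr11:70015379-70015678, - strand: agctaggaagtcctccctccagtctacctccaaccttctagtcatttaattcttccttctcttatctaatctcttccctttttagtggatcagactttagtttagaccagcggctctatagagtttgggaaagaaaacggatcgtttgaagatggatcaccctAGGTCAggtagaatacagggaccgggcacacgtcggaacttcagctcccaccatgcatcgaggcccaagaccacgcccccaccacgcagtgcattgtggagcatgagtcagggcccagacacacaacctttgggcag
Of 32544 distinct promoter windows of the same length in that table, 16.2% held AGGTCA on either strand, against 3 of these 8. The Acadm match was also the only one of the 8 to the longer form AAGGTCA, which overlaps it and was found in 4.71% of all windows. The PPAR direct repeat AGGTCANAGGTCA was found in 0 of the 8 windows and in 0.0399% of all windows, and the ERR element TCAAGGTCA in 0 of 8 and in 0.412%. The GC box GGGCGG was found in 5 of the 8 windows (Cd36, Cpt2, Acadl, Hadha and Hadhb) and in 35.9% of all. The only Hadha match lies in the bases shared with Hadhb and is also a Hadhb match, so these windows are not separate. These matches describe letters in the windows and are not measured binding.

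The arrays differed in quality, and this touches several values below. The array labelled control replicate 3 correlated with the other 5 at 0.940 to 0.945 over all genes, while those correlated with each other at 0.980 to 0.991. The intensity ratio of the 3' to the 5' control probe set of Gapdh, which rises with shorter cDNA, was 10.5 in control replicate 3 and 3.70 in knockout replicate 2, against 1.73 to 1.97 in the other 4 arrays. Pofut1 had intensities of 220.1, 231.1 and 194.3 in knockout samples 1 to 3, against 301.4, 379.8 and 90.6 in those labelled control 1 to 3. The lowest Pofut1 value of all 6 was thus in an array labelled control, which runs against that label, and the log2 difference was -0.02 (adjusted p = 0.998 in limma). Without that array the Pofut1 difference was -0.66. The place of its probe set relative to the floxed part is unknown here. The tissue label held against markers of muscle. All 12 skeletal muscle markers lay above background, which was set at an intensity of 74.8, the 95th percentile of 38 genes restricted to other tissues. Of 7 heart markers 1 had a mean above it.

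None of the 9 measured genes of fatty acid uptake and oxidation passed the test between knockout and control muscle. The limma fit over all 18194 genes gave 0 calls among them at an adjusted p under 0.05, where 0% of all genes were called. At an unadjusted p under 0.05 it gave 0 of the 9, against 2.58% of all genes. Differences of the 9 genes lay between -0.23 and 0.23, with a median of -0.005 where the median of all genes was -0.009. Of the 9, 3 were higher and 6 lower in the knockout, but 5 were higher and 4 lower without the array labelled control replicate 3. Each 95% interval spanned 0, and none reached beyond -0.67 or 0.89, so a doubling or halving lay outside the interval of each brightest probe set. Over all 18 probe sets the intervals reached -1.02 (1442732_at of Hadhb) and 1.23 (1455061_a_at of Acaa2), so this does not hold for every probe set. With 3 arrays against 3 the smallest exact two-sided permutation p is 0.1. Since no label ties the samples to separate mice, the tests measure the spread between samples, which may be partly technical. In whole tissue, fewer fibres and less transcript per fibre cannot be told apart.

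**Figure D1:**
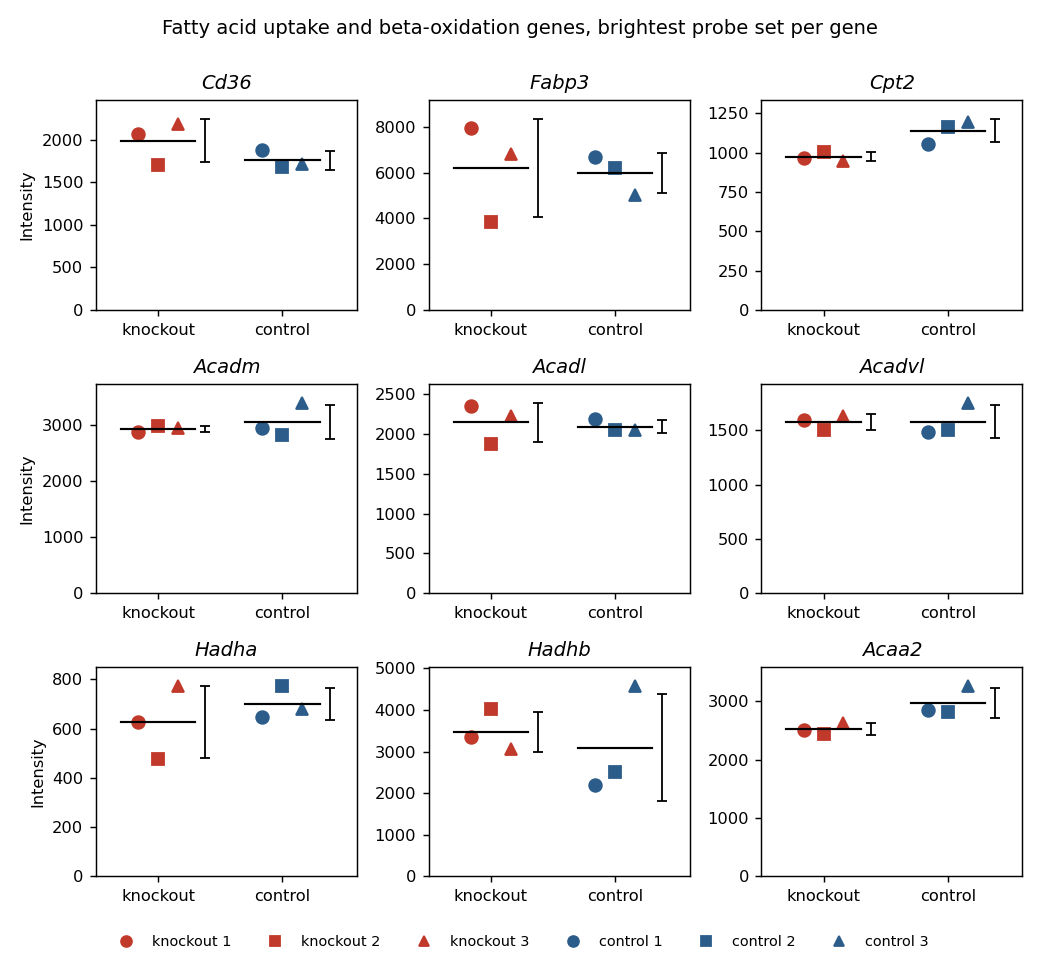
Intensity of the brightest probe set of each of the 9 measured genes (vertical axis, linear, from 0) in 3 knockout arrays, left, and 3 control arrays, right, of each panel. Horizontal lines are group means and the bars beside them are SD (n = 3). Cpt2 and Acaa2 are the genes whose groups do not overlap, and Fabp3 in knockout replicate 2 and Hadhb in control replicate 3 lie far from the rest of their groups.

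Transcripts of fatty acid uptake did not differ between the groups beyond their spread. Cd36, the fatty acid translocase of muscle, adipocytes and capillary endothelium, read 2070, 1707 and 2191 in knockout samples 1 to 3, against 1880, 1676 and 1720 in control samples 1 to 3. The groups overlapped, since knockout replicate 2 lay below control replicate 1 and 3. The difference was 0.17 ± 0.14 (SE), with a 95% interval of -0.15 to 0.49 and an adjusted p of 0.971 in limma. Its other 2 probe sets were also higher on average in the knockout, at 0.19 ± 0.18 (1450884_at) and 0.14 ± 0.31 (1450883_a_at), with an adjusted p of 0.988 each in the fit over all probe sets. The second of these varied most, reading 1269, 708.0 and 1668 in knockout samples 1 to 3, against 1195, 989.3 and 949.5 in control samples 1 to 3. The 1450884_at values of the groups no longer overlapped without control replicate 3 (difference 0.34, adjusted p = 0.861 in limma). Without that array 24.5% of all genes had no overlap on their brightest probe sets.

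Cd36 is also a gene of fat cells and capillaries, whose markers varied between the arrays. Adipoq, an adipocyte hormone, read 765.9, 335.2 and 1343 in knockout samples 1 to 3, against 962.6, 549.3 and 195.4 in control samples 1 to 3. The highest value of both Adipoq and the brightest Cd36 probe set was in knockout replicate 3. Their lowest values were in different arrays, control replicate 3 for Adipoq and control replicate 2 for that probe set. The Cd36 probe set 1450884_at was highest in control replicate 3, at 1311. Of 8 measured adipocyte markers 8 had higher means in the knockout, and their summed intensity was 13502 to 17058 in knockout arrays against 10892 to 12876 in control arrays. Most of that sum was Car3, which muscle fibres also express, and Fabp4. The other 6 markers summed to 1856, 1589 and 3638 in knockout samples 1 to 3, against 2419, 1708 and 907 in control samples 1 to 3, and overlapped. Leaving out control replicate 3, 6 of the 8 were higher, with a median difference of 0.10 where it was 0.46 with all arrays. Of 12 endothelial markers 8 were higher, with sums of 3651 to 4222 in knockout arrays and 3362 to 3882 in control arrays. Some of these markers lay below the background of 74.8 in single arrays. Lep read 48.0 in knockout replicate 2 and 43.9 in control replicate 3, where Aqp7 (39.9) and Cidec (67.7) were also below it. The part of fat cells and capillaries in the Cd36 values was not tested.

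Fabp3, the cytosolic fatty acid binding protein of heart and oxidative muscle, read 7941, 3818 and 6810 in knockout samples 1 to 3. It read 6694, 6210 and 5015 in control samples 1 to 3. The highest and the lowest of the 6 values were both in knockout arrays, and the group means, 6190 ± 2130 in the knockout and 5973 ± 864 in the control (SD, n = 3 each), gave a difference of -0.005 ± 0.27 on the log2 scale (adjusted p = 0.999). Without knockout replicate 2, one of the arrays with a high Gapdh ratio, the difference was 0.31 (adjusted p = 0.977). Slow fibre transcripts also varied between the arrays. Myh7, the slow myosin heavy chain, read 1114, 2423 and 1144 in knockout samples 1 to 3, against 85.9, 1192 and 3091 in control samples 1 to 3, so that the array with the lowest Myh7 had the third highest Fabp3 and knockout replicate 2, with the lowest Fabp3, had the second highest Myh7. A dimmer Fabp3 probe set was above background in 1 of 6 arrays.

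Cpt2 was lower in every knockout sample, by a margin that did not pass the test. This enzyme of the inner mitochondrial membrane turns acyl-carnitine back into acyl-CoA. It read 968.5, 1005 and 948.1 in knockout samples 1 to 3, against 1055, 1166 and 1195 in control samples 1 to 3, with no overlap. The means were 974.0 ± 29.0 in the knockout and 1139 ± 73.6 in the control (SD, n = 3 each). The log2 difference was -0.22 ± 0.12 (SE; interval -0.52 to 0.07), or 0.856-fold, with an adjusted p of 0.971 and an exact permutation p of 0.1. It was -0.19 and still without overlap once control replicate 3 was left out (adjusted p = 0.802).

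The 3 acyl-CoA dehydrogenases, which take chains of different length, had differences of at most 0.06 in size. Acadm, the medium-chain enzyme, read 2877, 2986 and 2955 in knockout samples 1 to 3, against 2955, 2828 and 3406 in control samples 1 to 3. Knockout samples lay close together, and the highest value was that of control replicate 3. Its difference was -0.06 ± 0.11 (interval -0.32 to 0.21, adjusted p = 0.971), which turned to 0.02 without control replicate 3. Acadl, the long-chain enzyme, read 2347, 1869 and 2221 in knockout samples 1 to 3, against 2188, 2045 and 2045 in control samples 1 to 3. As with Fabp3, the knockout group held both the highest and the lowest value of Acadl, and its difference was 0.03 ± 0.13 (interval -0.27 to 0.33, adjusted p = 0.987). Acadvl, the very-long-chain enzyme of the inner membrane, read 1595, 1499 and 1634 in knockout samples 1 to 3, against 1488, 1499 and 1756 in control samples 1 to 3. Its control values enclosed the knockout values, with a difference of -0.001 ± 0.12 (interval -0.29 to 0.29). Acadm and Acadvl, whose windows hold the half-site shown above, and Acadl, whose window does not, all had intervals within 0.33 of 0. Cd36, whose window also holds the half-site, had an interval of -0.15 to 0.49.

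Transcripts of the alpha and beta subunits of the mitochondrial trifunctional protein, which catalyses the last 3 steps for long chains, each overlapped between the groups. Hadha, with the hydratase and hydroxyacyl-CoA dehydrogenase activities, read 627.5, 478.0 and 772.0 in knockout samples 1 to 3, against 644.7, 773.3 and 680.2 in control samples 1 to 3. Knockout replicate 2 was lowest, and the difference was -0.18 ± 0.21 (interval -0.67 to 0.31, adjusted p = 0.971). Without both arrays with a high Gapdh ratio it was -0.02. Hadhb, with the thiolase activity, had 3 probe sets that disagreed. The brightest, 1437172_x_at, whose suffix marks probes that can match other sequences, read 3339, 4012 and 3058 in knockout samples 1 to 3. It read 2188, 2520 and 4579 in control samples 1 to 3. Its highest values were those of control replicate 3 and knockout replicate 2, the arrays with high Gapdh ratios, and the difference was 0.23 ± 0.28 (adjusted p = 0.971).

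The groups of that Hadhb probe set no longer overlapped without control replicate 3, at a difference of 0.55 ± 0.14 (adjusted p = 0.802, unadjusted 0.00793). It was then the 1 of the 9 genes with an unadjusted p under 0.05, against 5.99% of all genes. Leaving out that array, 3 of the 9 had no overlap (Hadhb higher, Cpt2 and Acaa2 lower), where 24.5% of all genes had none and 14.2% were lower with none. The second Hadhb probe set, 1426522_at, read 2053, 1936 and 2477 in knockout samples 1 to 3, against 2111, 2060 and 2010 in control samples 1 to 3. It showed no such gap, with 0.06 ± 0.13 over all arrays and 0.04 without control replicate 3. The dimmest, 1442732_at, read 159.5, 89.1 and 219.8 in knockout samples 1 to 3, against 146.3, 160.4 and 199.7 in control samples 1 to 3. Its lowest value was in knockout replicate 2, where the brightest probe set had its highest knockout value. The difference of Hadhb therefore rests on the choice of probe set.

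Acaa2, the mitochondrial 3-ketoacyl-CoA thiolase that acts mainly on medium chains, was lower in every knockout sample on its brightest probe set. That probe set, 1428146_s_at, read 2512, 2433 and 2634 in knockout samples 1 to 3, against 2845, 2815 and 3267 in control samples 1 to 3. The means were 2526 ± 101.2 in the knockout and 2976 ± 252.7 in the control (SD, n = 3 each), with no overlap. The difference was -0.23 ± 0.11 (SE; interval -0.49 to 0.03), or 0.851-fold, with an adjusted p of 0.971 and an exact permutation p of 0.1. Cpt2 and Acaa2 were thus the 2 of 9 genes without overlap, both lower in the knockout, where 9.01% of all genes had no overlap, made up of 3.33% higher and 5.68% lower.

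The other probe sets of Acaa2 did not show that gap. The second, 1428145_at, read 1156, 968.0 and 1387 in knockout samples 1 to 3, against 1164, 1232 and 1550 in control samples 1 to 3, and its difference was -0.17 ± 0.19. The dimmest, 1455061_a_at, read 172.5, 123.7 and 285.4 in knockout samples 1 to 3. It read 190.6, 183.1 and 95.1 in control samples 1 to 3, with a difference of 0.29 ± 0.40. Control replicate 3 was thus highest on the first and second probe sets of Acaa2 and lowest on this one. Without that array the 3 differences were -0.16, -0.05 and -0.03.

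**Figure D2:**
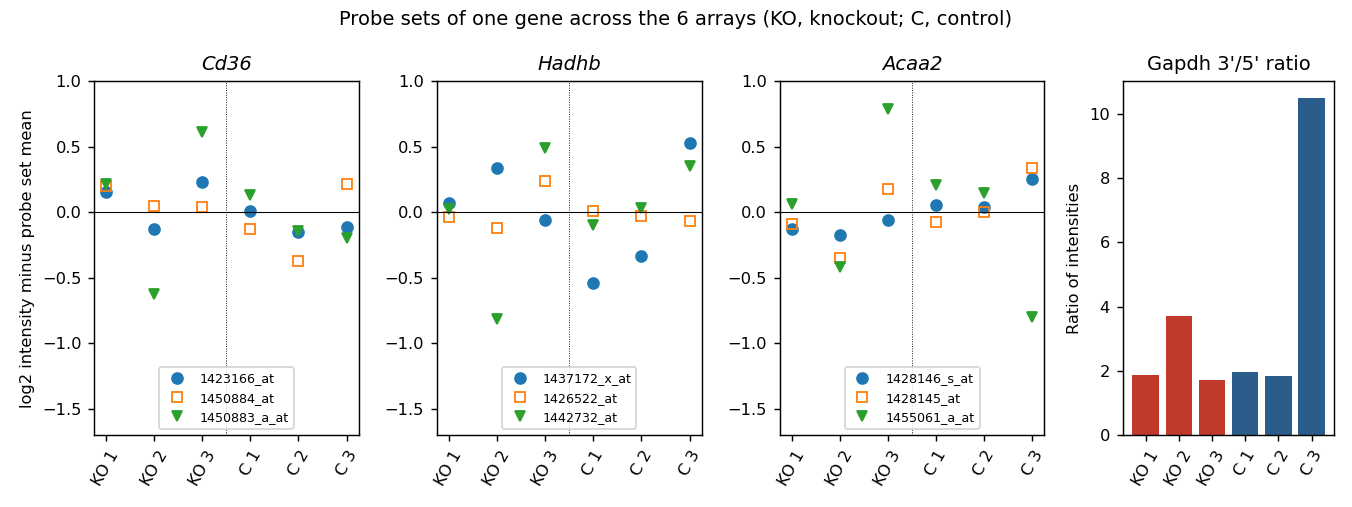
Log2 intensity of each probe set of Cd36, Hadhb and Acaa2 minus its own mean over the 6 arrays (vertical axis), by array, with 3 knockout (KO) arrays left of 3 control (C) arrays, and the Gapdh 3' over 5' ratio of the same arrays as bars. Probe sets of a gene lie farthest apart in knockout replicate 2 for Cd36 and Hadhb and in control replicate 3 for Acaa2, the arrays with ratios of 3.70 and 10.5.

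Across all 18 probe sets, 7 were higher and 11 lower in the knockout (10 higher and 8 lower without control replicate 3), and 0 passed (lowest adjusted p 0.988), where 0% of all 45101 probe sets were called. At an unadjusted p under 0.05 there were 0 of the 18, against 1.96% of all probe sets. Groups did not overlap for 2 of the 18, the brightest probe sets of Cpt2 and Acaa2, against 7.66% of all probe sets. In 15 of the 18 every array was above background. The other 3 were dimmer probe sets of Fabp3, Cpt2 and Acadl.

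**Figure D3:**
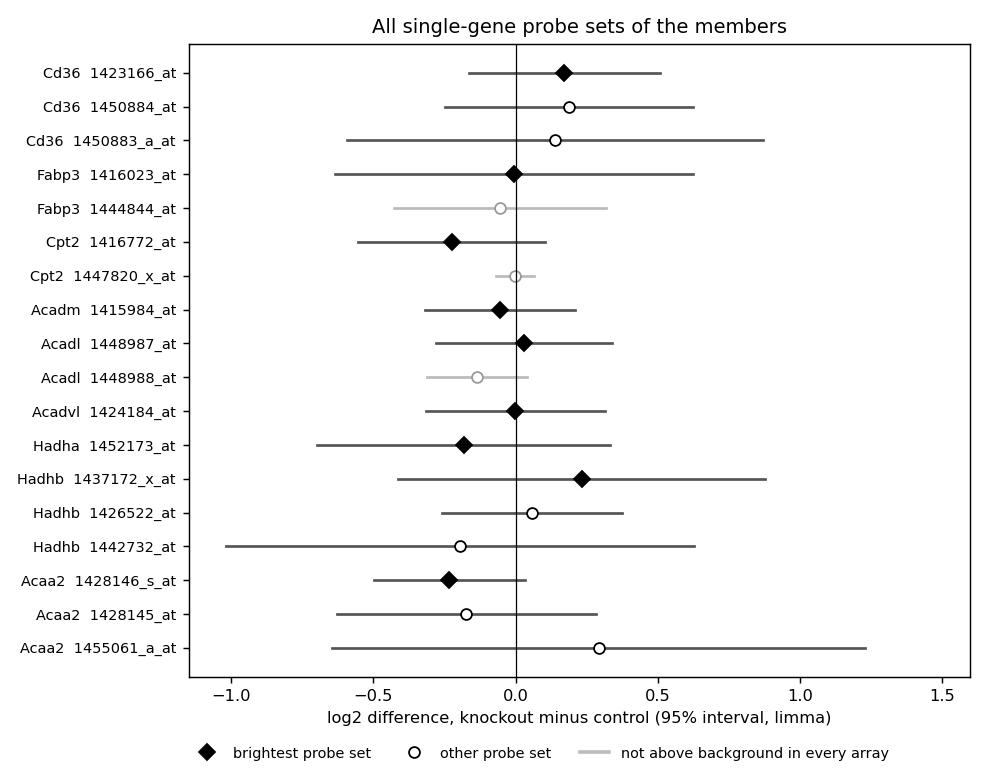
Log2 difference, knockout minus control, of the 18 single-gene probe sets (horizontal axis) with 95% intervals from the limma fit over all probe sets. Filled diamonds are the brightest probe set of a gene, open circles the others, and grey marks the 3 not above background in every array. Every interval spans 0.

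Single arrays moved the genes more than the group means did. Set against the other 5 arrays, the median of the 9 genes was lowest in knockout replicate 2, at -0.15, and highest in control replicate 3, at 0.19. Knockout replicates 1 and 3 stood at 0.02 and 0.06, and control replicates 1 and 2 at 0.005 and -0.06. Knockout replicate 2 had the lowest value of 4 of the 9 genes (Fabp3, Acadl, Hadha and Acaa2), and control replicate 3 the highest of 5 (Cpt2, Acadm, Acadvl, Hadhb and Acaa2). Without both of these arrays the median difference of the 9 genes was 0.11, against -0.005 with all 6. Over those 4 arrays Hadhb had the largest difference of the 9, at 0.44 on its brightest probe set (unadjusted p = 0.00789, adjusted p = 0.663 in limma). In that fit 2 of the 9 genes had an unadjusted p under 0.05, against 1362 of all 18194 genes. The other 2 probe sets of Hadhb had 0.11 and 0.29, while Cd36 had 0.26 and Fabp3 0.19. Cpt2 had -0.21 and Acaa2 -0.14 on their brightest probe sets, while the other 2 probe sets of Acaa2 had 0.08 and 0.25. The part of RNA quality in these values was not tested.

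The genes whose values followed the mean profile of the 9 most closely over the 6 arrays, among genes above background, were Snx13, Fndc5, Rps27, Atp5b and Lsm8. Their root mean square distance from that profile was 0.01 to 0.04 log2 units, where the profile itself had an SD of 0.09. Over the 5 arrays without control replicate 3 the closest were Snx13, Mrfap1, Mex3c, Ssr3 and Fndc5, so Snx13 and Fndc5 were named by both.

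The wider pathway also held 0 called genes. Of 83 further genes of fatty acid handling and mitochondria 78 were measured, 48 of them higher and 30 lower in the knockout, with a median difference of 0.04. Without control replicate 3, 39 were higher and 39 lower, with a median of 0.001. Leaving out knockout replicate 2 as well gave a median of 0.05. At an unadjusted p under 0.05 there were 2 of the 78, both lower, against 2.58% of all genes. Groups did not overlap for 7 of the 78, 1 higher and 6 lower, against 9.01% of all genes. Without control replicate 3 there were 6 of the 78 at an unadjusted p under 0.05, 5 of them lower, against 5.99% of all genes, and 28 without overlap, against 24.5%.

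The largest difference among these 78 was that of Ucp3, the uncoupling protein of muscle mitochondria and a PPAR target. It read 457.8, 436.2 and 480.7 in knockout samples 1 to 3, against 1241, 1060 and 776.5 in control samples 1 to 3. Every knockout value lay below every control value, with a difference of -1.14 ± 0.20 (unadjusted p = 0.000742, adjusted p = 0.971 in limma), and none of the 9 genes of uptake and oxidation had an interval that reached that size. The other gene of the 2 was Acsl3, an acyl-CoA synthetase, which read 476.1, 305.7 and 437.4 in knockout samples 1 to 3, against 821.0, 570.1 and 564.8 in control samples 1 to 3. Its difference was -0.69 ± 0.24 (unadjusted p = 0.0258), again without overlap. With control replicate 3 left out, Ucp3 had -1.33 and Acsl3 -0.78.

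Among the other 8 measured genes of uptake and activation, Got2, a mitochondrial aminotransferase also known as a plasma membrane fatty acid binding protein, had -0.15 ± 0.10. The list had 7 genes higher and 2 lower (median 0.08), but 5 higher and 4 lower without control replicate 3 (median 0.01). Genes of the carnitine shuttle and of malonyl-CoA, which inhibits CPT1, had 2 higher and 5 lower, with a median of -0.16. That median was -0.13 without control replicate 3 and -0.002 without it and knockout replicate 2. Cpt1a, the liver form of CPT1, read 258.6, 216.7 and 163.9 in knockout samples 1 to 3, against 289.4, 287.2 and 323.0 in control samples 1 to 3. All knockout values of Cpt1a lay below the control values, at -0.52 ± 0.22 (unadjusted p = 0.0557, adjusted p = 0.971). Mlycd, which breaks down malonyl-CoA, had -0.47 ± 0.30, and -0.17 without control replicate 3.

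Other enzymes of mitochondrial beta-oxidation had 9 of 15 genes higher and 6 lower, with a median of 0.03. Eci2, an isomerase for unsaturated chains, read 1515, 1462 and 1649 in knockout samples 1 to 3, against 1996, 1744 and 1750 in control samples 1 to 3. Its groups did not overlap, at -0.25 ± 0.12 (unadjusted p = 0.0815). Acads, the short-chain acyl-CoA dehydrogenase, had -0.32 ± 0.22, and -0.13 without control replicate 3. The list without control replicate 3 stood at 4 higher and 11 lower, with a median of -0.05. Its median was 0.01 when knockout replicate 2 was left out as well.

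Genes of lipid droplets and lipolysis had 9 of 11 higher (median 0.17, and 0.11 without control replicate 3), led by Dgat1, which makes triglyceride, at 0.67 ± 0.40, and Plin4, a droplet coat protein, had -0.27 ± 0.17. Dgat1 stood at 0.24 without control replicate 3. PPAR regulators and targets had 8 higher and 7 lower (median 0.01), and 6 higher and 9 lower without that array (median -0.10). Besides Ucp3 this list held Lpin1, a lipid phosphatase and transcriptional coactivator, at -0.33 ± 0.14 without overlap. Peroxisomal genes had 5 of 8 higher (median 0.08), with Pex11a, of peroxisome division, at 0.47 ± 0.28 and the transporter gene Abcd2 at -0.35 ± 0.24. Genes of mitochondrial content, such as citrate synthase and subunits of respiratory complexes, had 8 of 13 higher, with a median of 0.04 that became 0.17 without control replicate 3. Sdhb, of complex II, had -0.16 ± 0.09 and the respiratory chain gene Uqcrc1 had -0.28 ± 0.20. None of the genes in these lists passed.

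**Figure D4:**
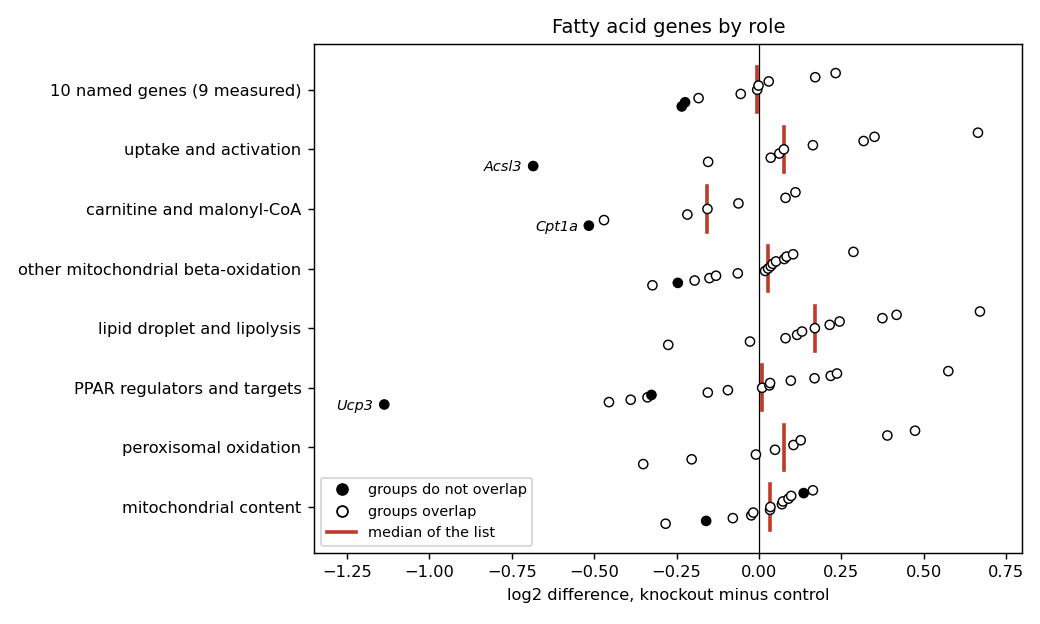
Log2 difference, knockout minus control (horizontal axis), of the 9 measured genes of fatty acid uptake and oxidation, top, and of 78 further genes by role. Each point is a gene, filled where the groups do not overlap, and red bars are list medians. Ucp3 at -1.14 and Acsl3 at -0.69 lie farthest to the left, and the 9 genes lie between -0.23 and 0.23.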

How the data were processed

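RNA of 6 quadriceps samples was measured on 1 Affymetrix mouse array each. Per the labels' protocols, Trizol extraction and a silica membrane step were followed by NuGEN Ovation amplification to biotin-labelled cDNA. The authors deposited linear intensities per probe set (37.2 to 16069), made with GCOS and RMA per the submitters' processing notes. Any further scaling is unknown, and RMA compresses differences of dim probe sets. The number of arrays limits the precision.

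The brightest single-gene probe set, by its mean over all arrays, stood for each gene. Log2 intensities, with no pseudocount, were fitted with limma 3.58.1 in R 4.3.3 (moderated with a trend, genotype as the single term, two-sided, Benjamini-Hochberg over 18194 genes, threshold 0.05), and all 45101 probe sets in a second fit. The fit was also run on simulated data with independent noise and equal array quality, unlike these arrays, so this run does not bear on the differences given here. Alternatives covered pairing, normalization, array weights, variance models, probe set choice, a filter, a pseudocount of 16 and left-out arrays. Those added after the data were seen left out _x_at probe sets or used the Gapdh ratio as a covariate. Equal replicate numbers did not pair the samples.

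The genes, lists and tests were chosen with earlier results of these data known. Named genes were the 10, Pofut1, Acta1, the 5 closest in profile and the 2 with the smallest p of each pathway list. Every called gene of a list would have been named, had there been any. Marker genes named (Adipoq, Myh7, Car3, Fabp4, Lep, Aqp7 and Cidec) were chosen after their values were seen. Acta1, whose promoter drives the cre, had a log2 difference of 0.13 ± 0.08 (SE, adjusted p = 0.971 in limma). Every knockout value of Acta1 (10610 to 11119) lay above every control value (9573 to 10134), as for 3.33% of all genes. Of 12 macrophage markers 3 were higher and 9 lower (median -0.11), but 0 and 12 without control replicate 3 (median -0.38). Of 10 slow fibre markers 8 were higher in both cases, with a median of 0.38 over all arrays and 0.96 without that array. Set against the other arrays, their median was -2.02 in control replicate 1, far below the rest. It was 0.21 and 0.85 in control replicates 2 and 3, and 0.125, 0.99 and -0.08 in knockout replicates 1 to 3.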

Additional observations from a re-analysis of the deposited data

How the results depend on the processing

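Over 19 alternative settings, 0 genes passed the threshold in any, and so 0 of the fatty acid genes or the pathway genes. The lowest adjusted p in limma was 0.0579 for any gene, a pathway gene with array weights, and 0.326 among the 9 genes. Probe sets of the fatty acid genes were fitted in 17 of the settings, where 0 passed (lowest adjusted p 0.298). The number of genes with an unadjusted p under 0.05 moved from 469 to 1854 with array weights, 786 without a trend in the variance, 1090 without control replicate 3, 1362 without it and knockout replicate 2, and 1167 with the Gapdh ratio as a covariate, and fell to 284, 276 and 284 without knockout replicate 1, 2 or 3. Pairing by replicate number was not borne out: deviations of equal numbers correlated at 0.19, -0.15 and -0.11, and the replicate block gave 0 calls, a median of -0.005 for the 9 genes and 377 genes with an unadjusted p under 0.05. The median difference of the 9 genes moved to 0.11 without both arrays with a high Gapdh ratio, and the cause was not tested. Leaving out 1 array at a time gave medians of -0.06 to 0.04. Signs held under every setting for Cd36, Cpt2 and Hadha. They turned for Fabp3 and Acadvl with centred medians (0.008 and 0.011), for Fabp3, Acadm and Acadvl with array weights (0.066, 0.002 and 0.093) and without both arrays (0.19, 0.012 and 0.113), and for Acadl and Acadvl with the Gapdh ratio (-0.001 and 0.034). For Acadl the mean of probe sets gave -0.053. The probe set of highest spread gave -0.136 for Acadl, -0.195 for Hadhb and 0.292 for Acaa2. Leaving out 1 array, Fabp3 ranged from -0.218 to 0.311, Acadm from -0.11 to 0.024, Acadl from -0.038 to 0.126 and Acadvl from -0.043 to 0.077, so no direction is given for these 4 genes. Cd36 ranged from 0.10 to 0.28, Hadha from -0.35 to -0.003 and Hadhb from 0.02 (without control replicate 1) to 0.55. Hadhb had 0.50 with array weights, 0.44 with the Gapdh ratio and 0.06 without _x_at probe sets.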

Other observations

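Some deposited values were equal between arrays to every decimal. Acadm had the same intensity in knockout replicate 3 and control replicate 1, Acadl in control replicates 2 and 3, and Acadvl in knockout replicate 2 and control replicate 2. Of the 18 probe sets 5 (27.8%) held such a pair, against 15.7% of all 45101 probe sets.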
